A study of Mus musculus with 8 samples.

Results

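The genes described are 9 of the 55414 genes in a table of testis transcripts: Dhh, Ptch1, Gli1, Hhip, Pdgfa, Pdgfra, Pdgfrb, Igf1 and Cxcl12. They were chosen by name as ligands, receptors and targets of the Hedgehog, PDGF, IGF and CXCL12 signals that reach Leydig cells, the androgen-making cells that lie between the seminiferous tubules. Whole testes of mice given valine (4 samples), a branched-chain amino acid, were compared with testes of control mice (4 samples) by RNA sequencing, in a series titled after apoptosis, autophagy and nucleic acid methylation of the testis. The sources used here give no strain, age, dose, route or length of treatment. They also do not say that each sample is a separate animal, so the p-values reflect the spread among these 8 samples alone, and that spread may be technical. Levels are FPKM, fragments scaled to gene length and to each library's mapped fragments, as the authors deposited them.

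Desert hedgehog (Dhh) is secreted by Sertoli cells, which nurse the germ cells within the tubules, and binds Patched (Ptch1) on Leydig and peritubular cells. Binding frees the membrane protein Smoothened, which lets Gli transcription factors act, and Ptch1, Gli1 and the ligand-binding inhibitor Hhip are themselves Gli targets, used as readouts of the pathway. Platelet-derived growth factor A (Pdgfa) from the tubules acts on its alpha receptor (Pdgfra) on Leydig cells and their progenitors, whereas the beta receptor (Pdgfrb) marks vascular mural and other mesenchymal cells. Insulin-like growth factor 1 (Igf1) supports Leydig cell maturation, and the chemokine Cxcl12 is made by stromal and other somatic cells.

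With valine, transcripts of Cxcl12, Pdgfra, Ptch1 and Igf1 were lower, and none of the 9 genes was higher. The ligands Dhh and Pdgfa, the target Gli1 and the receptor Pdgfrb did not pass. In the test used, limma on log2(FPKM + 1) over the 22077 genes whose mean reached 1 FPKM, an adjusted p below 0.05 was taken as a change. By that test 4 of the 9 genes fell, 4 were tested and did not pass, and Hhip lay below the expression filter, against a background of 4.41% of tested genes lower and 4.32% higher. The valine and control samples did not overlap for 5 of the 8 tested genes, where 18.4% of all tested genes had no overlap. Fold changes on this scale understate the change of genes with low values. Ratios of mean FPKM are therefore given beside them for the 4 fallen genes and for Gli1, Hhip, Pdgfrb, Cdon and Irs1. In whole testis, fewer cells of a type and less RNA per cell cannot be told apart.

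**Figure D1:**
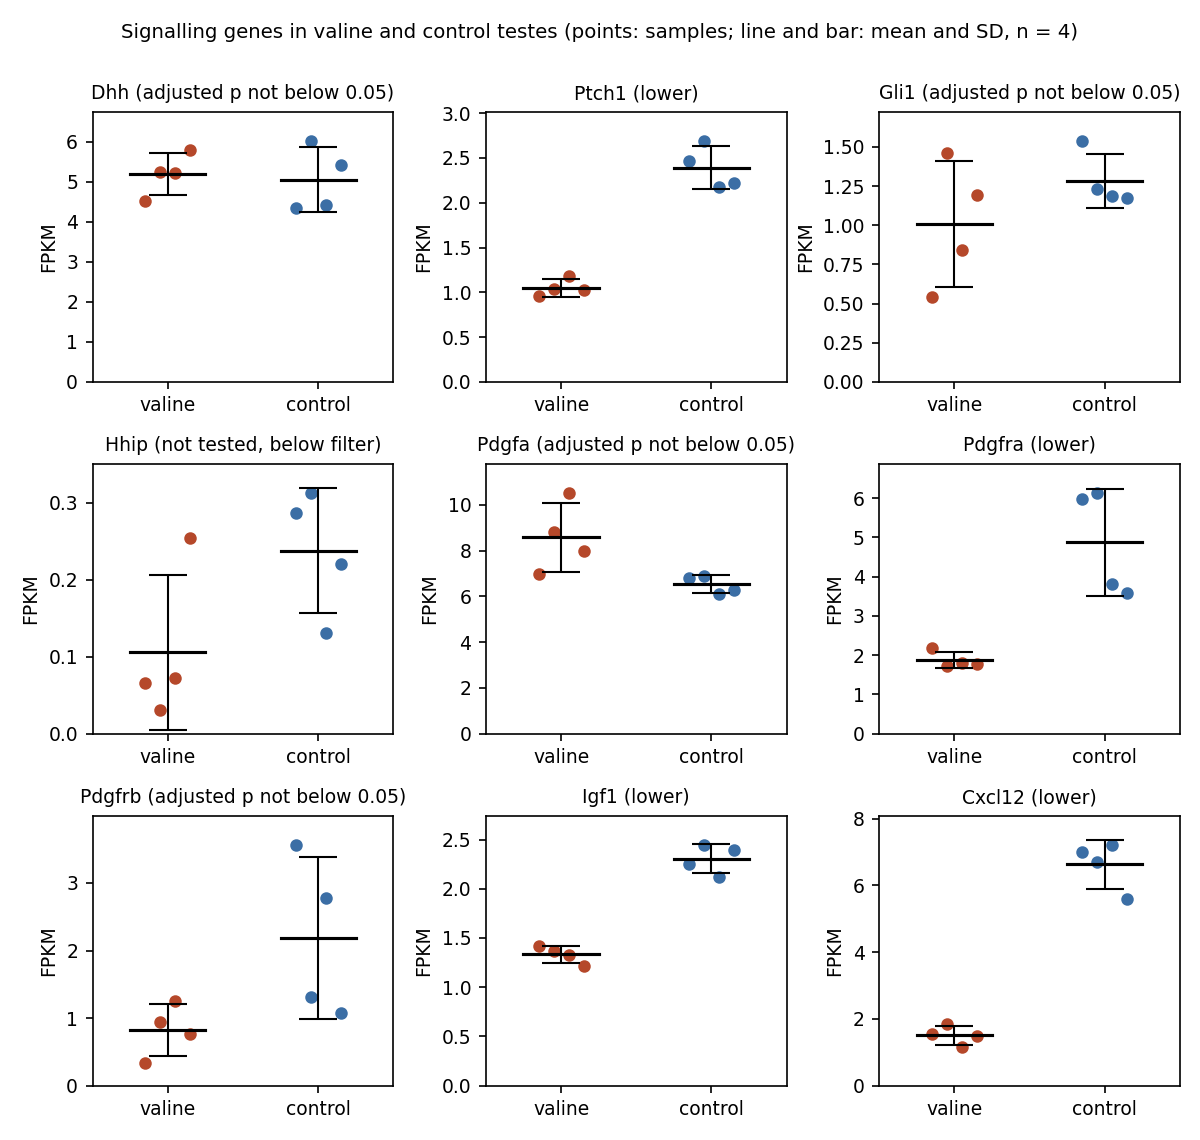
FPKM (vertical axes, linear, starting at 0) of the 9 genes in each of 4 valine and 4 control testes, with the group mean and SD. The valine points lie below all control points for Ptch1, Pdgfra, Igf1 and Cxcl12, and above them for Pdgfa.

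Cxcl12 had 1.55, 1.85, 1.16 and 1.49 FPKM in valine replicates 1 to 4, against 6.996, 6.70, 7.23 and 5.59 FPKM in control replicates 1 to 4. All 4 valine samples lay far below the lowest control sample. Its mean was 1.51 ± 0.284 FPKM in valine and 6.63 ± 0.726 FPKM in control testes (SD, n = 4 each), a ratio of 0.228. The log2 change was -1.60 ± 0.122 SE (limma adjusted p = 0.00116), rank 56 of 22077 genes by size of fall. The call held in each of the 8 fits that left out 1 sample. Fits without control replicates 1 and 2, or 1 and 3, were added after the data were seen. There Cxcl12 alone of the 9 genes still passed, with limma adjusted p values of 0.0491, just under the threshold, and 0.0246. In the same order Ptch1 had limma adjusted p values of 0.114 and 0.0731, Pdgfra of 0.0861 and 0.0709, and Igf1 of 0.183 and 0.0993, all with negative changes.

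The sequences just before the annotated starts of the 4 fallen genes are shown because these are the members that fell. They cover 250 bases each, 5′ to 3′ on the gene's strand, from RefSeq on GRCm38.p6 (an older build than the authors' GRCm39), with CpG dinucleotides in capitals. They lie at chr6:117168285-117168534 (plus strand) for Cxcl12, chr5:75152001-75152250 (plus) for Pdgfra, chr13:63565736-63565985 (minus) for Ptch1 and chr10:87860861-87861110 (plus) for Igf1.
Cxcl12: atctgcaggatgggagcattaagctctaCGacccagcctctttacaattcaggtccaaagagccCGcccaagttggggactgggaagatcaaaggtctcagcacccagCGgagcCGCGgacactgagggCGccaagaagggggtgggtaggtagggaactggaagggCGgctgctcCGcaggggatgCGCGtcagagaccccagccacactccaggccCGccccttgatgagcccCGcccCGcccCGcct
Pdgfra: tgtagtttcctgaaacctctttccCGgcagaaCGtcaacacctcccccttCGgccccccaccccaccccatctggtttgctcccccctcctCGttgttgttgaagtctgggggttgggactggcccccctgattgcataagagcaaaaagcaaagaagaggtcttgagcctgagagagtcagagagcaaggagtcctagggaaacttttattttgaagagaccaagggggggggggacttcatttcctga
Ptch1: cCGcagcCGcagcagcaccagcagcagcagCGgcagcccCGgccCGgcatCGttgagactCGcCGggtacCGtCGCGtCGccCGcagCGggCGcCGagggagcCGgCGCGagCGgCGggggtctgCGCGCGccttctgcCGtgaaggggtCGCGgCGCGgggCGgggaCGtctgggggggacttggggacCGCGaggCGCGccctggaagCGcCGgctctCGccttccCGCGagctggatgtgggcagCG
Igf1: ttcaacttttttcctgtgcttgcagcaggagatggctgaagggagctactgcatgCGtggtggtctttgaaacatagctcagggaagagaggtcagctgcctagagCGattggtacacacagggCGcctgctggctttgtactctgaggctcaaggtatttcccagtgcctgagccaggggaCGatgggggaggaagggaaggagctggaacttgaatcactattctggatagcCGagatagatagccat

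These windows held 14 CpGs for Cxcl12, 4 for Pdgfra, 41 for Ptch1 and 5 for Igf1. The median over 32851 such windows was 6, with quartiles of 2 and 16, so Ptch1 lay above the quartiles and the other 3 between them. The GLI consensus GACCACCCA, searched on both strands from 250 bases before to 50 bases after the start, was in none of the 8 windows matched to 7 of the 9 genes; Gli1 and Pdgfrb had no match in the table. It was in 83 of all 32851 windows (0.253%). The core AAGGTCA of the steroidogenic factor NR5A1 was also in none of the 8 windows, and in 4.72% of all windows; these shorter letters are not part of the GLI consensus.

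Among the Hedgehog genes, the receptor Ptch1 fell, while the ligand did not pass the test. Dhh had 4.52, 5.25, 5.23 and 5.79 FPKM in valine samples, against 4.35, 6.02, 4.41 and 5.42 FPKM in control samples. The samples of both groups were interleaved, and the log2 change of 0.04 had a 95% interval of -0.23 to 0.31 (limma adjusted p = 0.872). The exons of Dhh overlap those of Rhebl1 on the same strand over 546 of 4399 bases and those of an antisense transcript over 1107 bases, so some fragments could be counted for another gene.

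Ptch1 had 0.955, 1.04, 1.19 and 1.02 FPKM in valine samples and 2.47, 2.69, 2.18 and 2.22 FPKM in control samples. The highest valine sample stood well below the lowest control sample. The means were 1.05 ± 0.0974 and 2.39 ± 0.239 FPKM (valine and control, SD, n = 4 each), a ratio of 0.439, with a log2 change of -0.72 ± 0.114 SE (limma adjusted p = 0.00966). Its call held in every fit without 1 sample, with adjusted p between 0.0206 and 0.0341.

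Gli1, the transcription factor whose transcript follows pathway activity, had 0.542, 1.46, 0.842 and 1.19 FPKM in valine samples and 1.54, 1.23, 1.19 and 1.17 FPKM in control samples. Valine replicates 1 and 3 were below all control samples, and replicates 2 and 4 lay within their range. The ratio of means was 0.787, and the log2 change was -0.20 ± 0.174 SE with a 95% interval of -0.60 to 0.19 (limma adjusted p = 0.513). Per sample, the log2 ratio of Gli1 to Dhh, computed on FPKM + 1, was -1.64 ± 0.216 in valine and -1.40 ± 0.262 in control testes (SD, n = 4 each). That difference of -0.24 was within the spread (two-sided exact permutation p = 0.2, 0.3 adjusted over 3 ratios).

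Hhip, which binds Hedgehog ligands at the cell surface, was near the bottom of the scale with 0.066, 0.031, 0.072 and 0.254 FPKM in valine samples and 0.287, 0.313, 0.131 and 0.22 FPKM in control samples. Valine replicates 1 to 3 were below all control samples and replicate 4 was not. Its ratio of means was 0.445, and the difference on the log2(FPKM + 1) scale was -0.16 (two-sided exact permutation p = 0.0857; the smallest p that 4 against 4 samples allow is 0.0286). With no expression filter its limma adjusted p was 0.388.

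Of the 19 genes of the Hedgehog list 13 were tested, 2 fell and none rose, beside 4.41% of all tested genes lower and 4.32% higher. The median log2 change of the 13 was -0.10, beside 0.02 for all tested genes. The second fall was Cdon, a co-receptor that helps Patched bind the ligand, with 2.15, 1.22, 1.84 and 1.11 FPKM in valine samples and 3.51, 3.55, 3.40 and 3.95 FPKM in control samples. The groups did not overlap, the ratio of means was 0.438, and the log2 change was -0.86 ± 0.151 SE (limma adjusted p = 0.014). Further genes, Smo, Boc and Gas1, were chosen after their values were seen. Smo, which encodes Smoothened, had 1.97 ± 0.163 and 3.05 ± 0.844 FPKM in valine and control testes (limma adjusted p = 0.143). The other co-receptors Boc and Gas1 had adjusted p values of 0.652 and 0.201 in limma, with log2 changes of -0.10 and -0.42.

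In the PDGF family the alpha receptor fell. Pdgfra had 2.18, 1.73, 1.81 and 1.78 FPKM in valine samples and 5.97, 6.14, 3.81 and 3.59 FPKM in control samples. The valine samples lay close together and below every control sample, while control replicates 1 and 2 stood above replicates 3 and 4. The means were 1.88 ± 0.204 and 4.88 ± 1.36 FPKM (valine and control, SD, n = 4 each), a ratio of 0.385, and the log2 change was -1.004 ± 0.171 SE (limma adjusted p = 0.0121). The call held in each of the 8 fits without 1 sample, with changes of -1.11 to -0.90.

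Its ligand Pdgfa had 6.998, 8.80, 10.5 and 7.99 FPKM in valine samples and 6.81, 6.91, 6.12 and 6.28 FPKM in control samples. The groups did not overlap, but valine replicate 1 lay just above control replicate 2, and the log2 change of 0.34 ± 0.117 SE did not pass (limma adjusted p = 0.114). An antisense transcript covers 813 of its 3119 exon bases, and whether fragments were counted by strand is not stated in the sources used here.

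Pdgfrb had 0.33, 0.946, 1.25 and 0.767 FPKM in valine samples and 3.57, 1.31, 2.78 and 1.07 FPKM in control samples. Control replicate 4 fell among the valine samples. The ratio of means was 0.377, close to that of Pdgfra, but the spread was wide and the log2 change of -0.75 ± 0.289 SE did not pass (limma adjusted p = 0.146). The log2 ratio of Pdgfra to Pdgfrb, computed on FPKM + 1, was 0.68 ± 0.407 in valine and 0.93 ± 0.571 in control testes (SD, n = 4 each). A different fall of the 2 receptors was not detected (two-sided exact permutation p = 0.514, 0.514 adjusted over 3 ratios).

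All 6 genes of the PDGF list were tested, and Pdgfra was its single call, beside 4.41% of all tested genes lower and 4.32% higher. The list's median log2 change was -0.30. The ligand Pdgfd, chosen after its value was seen, had 4.15 ± 0.392 and 5.58 ± 0.615 FPKM in valine and control testes without overlap (limma adjusted p = 0.073). Of the settings run it passed only after rescaling to equal FPKM totals (limma adjusted p = 0.0328), which moved the median change of all tested genes to -0.08. With quantile normalisation its limma adjusted p was 0.0997, and with no expression filter 0.139.

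**Figure D2:**
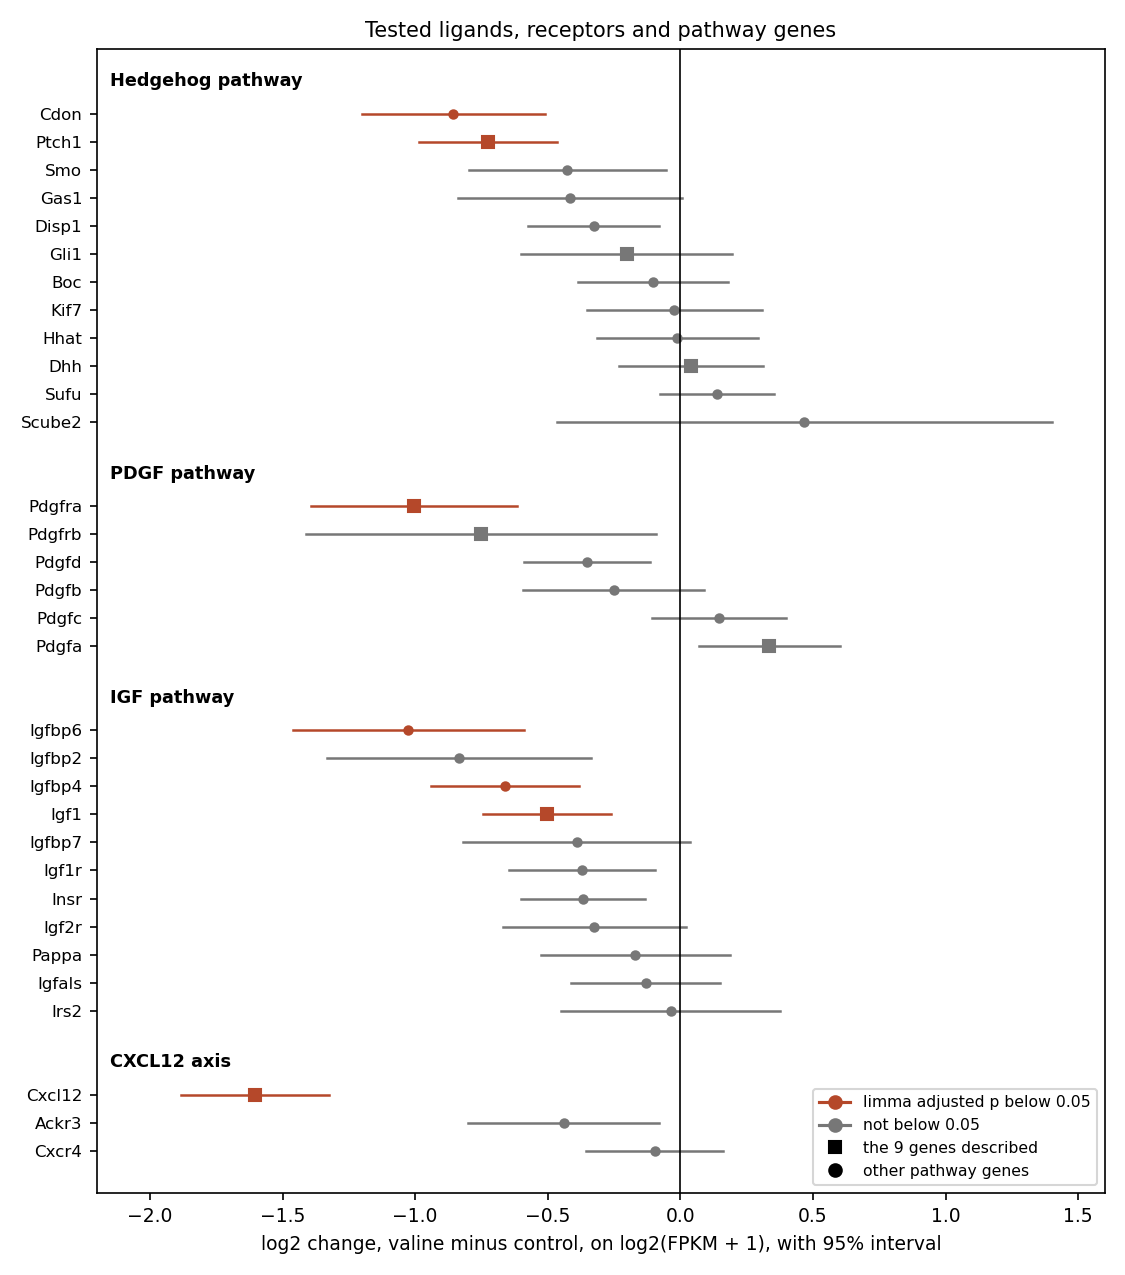
Log2 change (valine minus control, horizontal axis, on log2(FPKM + 1)) with its 95% interval for 32 of the 33 tested genes of the Hedgehog, PDGF, IGF and CXCL12 lists; squares are the genes described and red marks an adjusted p below 0.05. The 7 red genes all lie left of 0, with Cxcl12 farthest at -1.60.

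Igf1 had 1.41, 1.37, 1.33 and 1.22 FPKM in valine samples and 2.25, 2.45, 2.12 and 2.39 FPKM in control samples. Both groups were tight and apart. The means were 1.33 ± 0.0847 and 2.30 ± 0.147 FPKM (valine and control, SD, n = 4 each), a ratio of 0.578, and the log2 change was -0.50 ± 0.105 SE (limma adjusted p = 0.0249). The call was close to the threshold: it was lost with no expression filter (adjusted p = 0.0599), after removal of the gene length trend (adjusted p = 0.0704), and in 7 of the 8 fits without 1 sample, all but the one without control replicate 3 (adjusted p up to 0.0664).

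Its receptor Igf1r, chosen after its value was seen, had 2.55 ± 0.204 FPKM in valine and 3.62 ± 0.622 FPKM in control testes, with no overlap and no call (limma adjusted p = 0.096). The log2 ratio of Igf1 to Igf1r, computed on FPKM + 1, was -0.61 ± 0.0445 in valine and -0.47 ± 0.163 in control testes (SD, n = 4 each, two-sided exact permutation p = 0.2, 0.3 adjusted over 3 ratios).

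The IGF list held binding proteins that fell with the ligand. Of its 20 genes 11 were tested, 3 fell and none rose, beside 4.41% of all tested genes lower and 4.32% higher. The median log2 change of the 11 was -0.37, beside 0.02 for all tested genes. Igfbp6, which prefers IGF2, had 22.1, 30.0, 20.4 and 24.6 FPKM in valine samples and 51.7, 63.6, 55.4 and 34.1 FPKM in control samples. The groups did not overlap, and the log2 change was -1.03 ± 0.191 SE (limma adjusted p = 0.0168, and 0.0517 without valine replicate 1 or without control replicate 1). Igfbp4, an inhibitor of IGF action that the protease Pappa cleaves, had 4.06, 5.07, 5.59 and 4.42 FPKM in valine samples and 9.53, 8.58, 7.38 and 7.12 FPKM in control samples. These groups were also apart, with a log2 change of -0.66 ± 0.122 SE (limma adjusted p = 0.0162). The most abundant IGF list gene without a call was Igfbp7, with 56.6 ± 14.2 and 73.9 ± 14.2 FPKM in valine and control testes (limma adjusted p = 0.235), and part of its exons overlap those of Polr2b. Igfbp2, chosen after its value was seen, had 8.10 ± 1.56 FPKM in valine and 15.6 ± 4.80 FPKM in control testes and missed the threshold narrowly (limma adjusted p = 0.051). It passed with equal totals (limma adjusted p = 0.0325), a mean of at least 5 FPKM (0.0389), the length trend removed (0.0464) and without control replicate 4 (0.0217). In the other settings run it did not pass, with limma adjusted p up to 0.277 without control replicates 1 and 2.

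For the CXCL12 axis, 3 of 4 genes were tested and Cxcl12 was the single call. The signalling receptor Cxcr4 had 5.33 ± 0.415 FPKM in valine and 5.81 ± 0.866 FPKM in control testes, with overlap (limma adjusted p = 0.637). The scavenger receptor Ackr3, chosen after its value was seen, had 2.30 ± 0.464 FPKM in valine and 3.50 ± 0.821 FPKM in control testes (limma adjusted p = 0.123). Over the 4 lists, 7 of 33 tested genes fell and none rose, beside 4.41% of all tested genes lower and 4.32% higher. The lists were chosen with earlier results of these data known.

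Levels in FPKM, which are per length, had a different order in each group. In valine testes the highest mean was that of Pdgfa (8.58), followed by Dhh (5.20), Pdgfra (1.88), Cxcl12 (1.51), Igf1 (1.33), Ptch1 (1.05), Gli1 (1.01), Pdgfrb (0.823) and Hhip (0.106). The sample ranges of neighbours in that order overlapped for Pdgfra with Cxcl12, Cxcl12 with Igf1, Ptch1 with Gli1 and Gli1 with Pdgfrb. In control testes the order of means was Cxcl12 (6.63), Pdgfa (6.53), Dhh (5.05), Pdgfra (4.88), Ptch1 (2.39), Igf1 (2.30), Pdgfrb (2.18), Gli1 (1.28) and Hhip (0.238). There the ranges overlapped for Cxcl12 with Pdgfa, Dhh with Pdgfra, Ptch1 with Igf1, Igf1 with Pdgfrb and Pdgfrb with Gli1.

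By the centred log2 profile over 8 samples, a gene near to Cxcl12 was Gpt2, an alanine transaminase (root mean square difference 0.117). Gpt2 had 9.22 ± 1.76 FPKM in valine and 31.7 ± 4.89 FPKM in control testes (SD, n = 4 each). Those nearest to Pdgfra were the potassium channel Kcnk1 (0.0836) and Cped1 (0.102), of which Cped1 had 0.917 ± 0.141 FPKM in valine and 2.77 ± 0.558 FPKM in control testes (SD, n = 4 each).

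Marker lists of somatic testis cell types were read in the same samples, beside 4.41% of all tested genes lower and 4.32% higher. All 8 Leydig markers fell, with summed levels of 474.5 to 766.2 FPKM in valine and 1601 to 2269 FPKM in control testes. Of 8 markers of Leydig progenitors and interstitial mesenchyme 5 were tested and 1 fell; the sums over the list were 14.8 to 17.1 and 21.2 to 30.0 FPKM in valine and control testes. Of 8 peritubular myoid markers 3 fell (33.8 to 47.2 FPKM in valine and 63.4 to 83.3 FPKM in control testes), of 8 stroma and matrix markers 4 fell (24.7 to 30.3 FPKM in valine and 51.3 to 90.4 FPKM in control testes), of 7 tested endothelial markers 4 fell (17.8 to 19.5 FPKM in valine and 30.4 to 36.3 FPKM in control testes), and of 2 tested pericyte markers Rgs5 fell (3.34 to 5.05 FPKM in valine and 6.06 to 12.9 FPKM in control testes, sums of all 5). Of 8 macrophage markers 4 fell and Aif1, which made up most of the sum, rose (547.4 to 688.5 FPKM in valine and 514.2 to 537.1 FPKM in control testes). That sum does not stand for the macrophage list, as 7 of its 8 markers had negative changes. None of these lists had a marker at 0 in any sample. The part of these cell types in the lower Cxcl12, Pdgfra, Ptch1 and Igf1 was not tested.

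Sertoli cell markers, from the cells that make Dhh, had sums of 1166 to 1274 FPKM in valine and 1151 to 1278 FPKM in control testes, with 2 of 14 higher and none lower. Beside this count and the germ cell counts that follow, 4.41% of all tested genes were lower and 4.32% higher. Of 8 spermatid markers 5 rose, with sums of 50940 to 62610 FPKM in valine and 39570 to 42040 FPKM in control testes. Of 6 spermatocyte markers 1 rose and 1 fell, with sums of 995.1 to 1063 FPKM in valine and 1022 to 1087 FPKM in control testes. Of 6 spermatogonial markers Zbtb16 fell (1.36 to 1.67 FPKM in valine and 2.80 to 5.01 FPKM in control testes). The sums of all 6 were 170.2 to 184.6 FPKM in valine and 152.6 to 170.1 FPKM in control testes. Dazl and Uchl1, which had positive changes, made up most of those sums, and 3 of the 6 markers had negative changes.

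**Figure D3:**
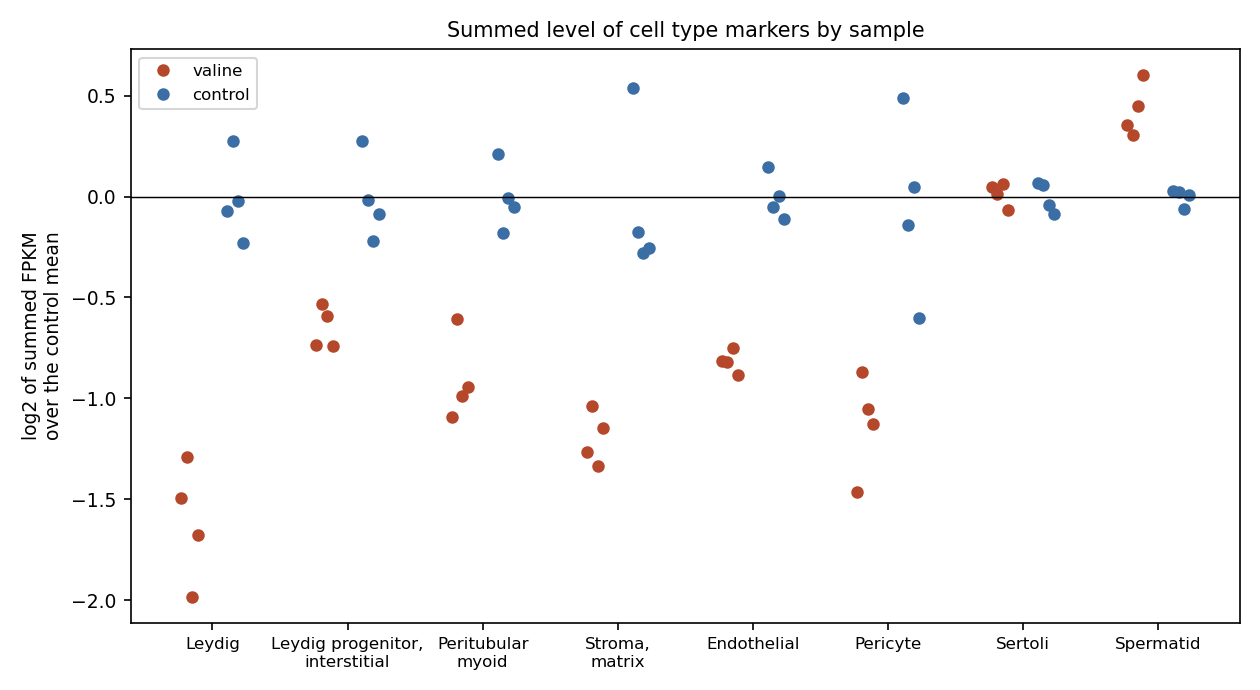
Log2 of the summed FPKM of each cell type's markers in a sample over the mean of the 4 control samples (vertical axis), with valine and control samples as points. The valine points lie below the control points for the Leydig, progenitor, myoid, stroma, endothelial and pericyte lists, among the control points for Sertoli cells and above them for spermatids.

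Control replicate 1 stood apart for several genes of fat and matrix and for the epididymal gene Crisp1. Cfd was listed at 0, 0.152, 0 and 0 FPKM in valine samples and had 29.8, 0.325, 1.77 and 1.01 FPKM in control samples. Of 7 adipocyte markers 6 were tested and Plin1 fell, with sums of 33.2 to 41.4 FPKM in valine and 31.8 to 89.6 FPKM in control testes; Cfd, Car3 and Lep were at 0 in some valine samples, while Adipoq had 27.2 to 38.6 FPKM in every sample. Without control replicate 1, Cxcl12, Pdgfra and Ptch1 were still lower (log2 changes of -1.58, -0.91 and -0.71, limma adjusted p = 0.00608, 0.0382 and 0.0341). Igf1 lost its call in that fit (log2 change -0.51, limma adjusted p = 0.0658). Leaving that sample out did not remove the fat difference. Cfd, Car3 and Plin1 in the other control samples still lay above every valine sample, while Adipoq, Lep, Fabp4 and Retn overlapped. The part of fat in the lower genes was not tested. The stroma and matrix sum was 90.4 FPKM in control replicate 1 and 51.3 to 55.0 FPKM in the other 3 control samples. The epididymal gene Crisp1, chosen after its values were seen, had 0.106, 0, 0.186 and 0.191 FPKM in valine samples and 5.06, 0.211, 0.105 and 0.282 FPKM in control samples. None of the other epididymis genes was highest in control replicate 1. Spink8 was highest in control replicate 4 (7.62 FPKM) and Cst11 in control replicate 3 (1.44 FPKM). None of 6 tested blood and lymphocyte genes passed, and Cd79a was at 0 in at least 1 sample (sums of 50.9 to 111.3 FPKM in valine and 66.5 to 107.5 FPKM in control testes). Of 7 epididymis genes 1 was tested, with no call, and 6 were at 0 in at least 1 sample (3.26 to 5.48 FPKM in valine and 2.04 to 10.2 FPKM in control testes).

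Across the whole table FPKM totals were 1027662 to 1070524 in valine and 944659 to 974626 in control samples. Steps among low values gave depths, relative to control replicate 1, of 0.866 to 0.991 in valine and 0.870 to 1.00 in control samples; the absolute depth is unknown, so no counting interval is given. In all, 954 genes were higher and 974 lower with valine, a split that was 363 and 2022 after rescaling to equal totals and 398 and 1029 with quantile normalisation. The median change of all tested genes was 0.02 as deposited and -0.08 with equal totals, and Cxcl12, Pdgfra, Ptch1 and Igf1 were lower under both scalings. The numbers of higher and lower genes were 381 and 461 without control replicate 1, 466 and 562 without control replicate 2, and 410 and 489, 593 and 578, 629 and 647, and 580 and 614 without valine replicates 1, 2, 3 and 4.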

How the data were processed

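Testis RNA of 8 samples, 4 valine and 4 control, was taken up in Trizol and sequenced from TruSeq libraries, per the labels' protocols. The submitters' processing notes name the aligner HISAT2 and the build GRCm39. The sources used here do not state the quantifier, annotation release or strand setting. The authors deposited FPKM values for 55414 Ensembl genes. FPKM divides by gene length and by the library's mapped fragments, so a change in abundant transcripts shifts all values of a sample. Columns were matched to samples by group name and number (VA read as valine), with 0 per-sample columns unused, and no 2 samples held identical values.

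Symbols came from GENCODE vM21 and RefSeq tables (52081 genes), and exon lengths and overlaps from GENCODE vM21 on GRCm38. Genes whose mean reached 1 FPKM were tested on log2(FPKM + 1) with limma 3.58.1 in R 4.3.3, with treatment as the only term and moderation along a mean-variance trend; p-values were two-sided and adjusted over 22077 genes by Benjamini-Hochberg. The log2 ratios of 2 genes, computed on FPKM + 1, were compared by exact permutation over 70 arrangements (scipy 1.17.1). The fit was tested on simulated data. The genes, lists and tests were chosen with earlier results of these data known. Genes named were the 9 members, list genes past the threshold, the most abundant ligand, receptor or binding protein of each list without a call, and the 2 genes nearest in centred profile to members with a log2 change of at least 1; a few genes that this rule picks are not reported here, and others are said to be chosen after their values were seen. Alternatives were a pseudocount of 0.1, no filter, a mean of at least 5 FPKM, equal totals, quantile normalisation, moderation without trend or robust, the replicate number as a block, removal of the length trend (loess span 0.3), and leaving out samples. The labels give no batch.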

Additional observations from a re-analysis of the deposited data

Results flagged for a closer look

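Of 34 sets of 4 samples examined (14 genes and 3 ratios, in each group), 1 had a sample far from the others, where chance gives about 1 in 20. Gli1 had 1.54 FPKM in control replicate 1 and 1.17 to 1.23 FPKM in the other control samples, a gap of 0.847 of the group's range, above Dixon's 95% critical value for 4 samples. Without that sample the log2 change of Gli1 was -0.15 (limma adjusted p = 0.701). The same sample was the one with the highest level of the fat cell gene Cfd; whether the 2 are connected was not tested.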

How the results depend on the processing

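The count of described genes that fell was 4; it was 3 with no expression filter, with the length trend removed, and with the replicate number as a block, 3 to 4 with 1 sample left out, and 0 with a mean of at least 5 FPKM, where only Dhh and Pdgfa were tested. None of them was called higher under any setting run. Leaving out 2 control samples together, added after the data were seen, left Cxcl12 as the single fallen gene of all lists (count of 1) without control replicates 1 and 2 and also without replicates 1 and 3; these fits of 6 samples called 5 higher and 31 lower, and 99 and 142, of all genes. List genes lower numbered 7, with 3 at the 5 FPKM filter, 11 with equal totals and 5 to 7 with 1 sample left out. All genes higher numbered 568 with no filter, 363 with equal totals, 398 with quantile normalisation, 503 without the trend and 381 to 795 with 1 sample left out, and lower 2022 with equal totals and 461 to 802 with 1 sample left out. Among genes without a call that were named by rule, the sign turned for Dhh and Cxcr4. Dhh was at -0.058 with equal totals, -0.12 without control replicates 1 and 3, and -0.016 to 0.11 with 1 sample left out. Cxcr4 was at 0.0052 without control replicates 1 and 3. Of the genes chosen after their values were seen, Boc turned (0.044 without control replicates 1 and 3). Irs2 also turned in several settings, such as 0.0020 with quantile normalisation and 0.16 without control replicates 1 and 3. The causes were not tested. The 3 ratios kept their sign under the alternatives run. With absolute depth unknown, no counting error can be given for low genes such as Hhip.

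The replicate numbers are shared between groups, but the deviations of same-numbered samples correlated at -0.0167, -0.0401, 0.104 and 0.111, and not every sample correlated best with its own number, so the numbers were not taken as pairs. With the replicate number as a block, 581 genes were higher and 489 lower, and 4 list genes were lower (Cxcl12, Igfbp6, Pdgfra and Ptch1). Cdon, Igfbp4 and Igf1 then had limma adjusted p values of 0.0536, 0.0592 and 0.0832.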

Other observations

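Several pathway genes lay below the expression filter; those below were picked with their values in view. Irs1, a docking protein for the insulin and IGF1 receptors, had 0.066, 0.107, 0.043 and 0.044 FPKM in valine samples and 0.285, 0.606, 0.324 and 0.364 FPKM in control samples, a ratio of means of 0.165 with no overlap. It was the single one of these low genes with a limma adjusted p below 0.05 when no filter was used (0.0471). Its paralog Irs2 had 2.72 ± 0.663 and 2.83 ± 0.762 FPKM in valine and control testes (SD, n = 4 each; limma adjusted p = 0.926).

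Gli2, the Gli protein that acts as the main activator in many tissues, had 0.636, 0.815, 0.536 and 0.394 FPKM in valine samples and 0.91, 0.828, 0.884 and 1.05 FPKM in control samples. The groups were apart by a narrow gap, and the no-filter limma adjusted p was 0.303. Ihh, another Hedgehog ligand, had 0.909 ± 0.219 FPKM in valine and 0.5002 ± 0.252 FPKM in control testes (no-filter limma adjusted p = 0.312). Its valine samples lay above all control samples by a narrow gap (0.735 to 1.21 against 0.147 to 0.729 FPKM). Dpp4, a peptidase that cleaves Cxcl12, had 0.317 ± 0.0619 FPKM in valine and 0.570 ± 0.133 FPKM in control testes, also without overlap (no-filter limma adjusted p = 0.217).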
